A study of Mus musculus with 6 samples.

Results

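The genes described are the 10 that make, break down, bind and read retinoic acid in the mesenchyme of the mouse Müllerian duct. The duct gives rise to oviduct, uterus and upper vagina, and its mesenchyme is the layer of connective tissue that surrounds it. They were taken by gene symbol: the synthesis enzymes Aldh1a1, Aldh1a2 and Aldh1a3, the breakdown enzymes Cyp26a1 and Cyp26b1, the receptors Rara, Rarb and Rarg, and the binding proteins Crabp1 and Crabp2. All 10 were among the 37991 genes in the counts, and all 10 were among the 15227 genes abundant enough to test. Cells came from male and from female embryos at embryonic day 14.5, with 3 libraries per sex. Every embryo carried Amhr2Cre/+ and R26R YFP/+ on a C57BL/6J x 129/SvEv mixed background. Amhr2, the receptor gene for anti-Müllerian hormone (AMH), thus drove Cre in both sexes, and sorted YFP+ cells are cells with present or past Cre activity. Each library pooled cells of 2 to 7 embryos. Male ducts at this age are exposed to AMH from the testis and regress, so the comparison asked what differed in male relative to female mesenchyme. No library came from embryos without AMH, so AMH exposure and other differences between the sexes cannot be told apart.

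Retinoic acid is made from retinol by a first oxidation step, in embryos chiefly by RDH10, and a second by the ALDH1A enzymes. CRABP proteins carry it in the cytoplasm, CYP26 enzymes oxidise it for removal, and RAR proteins, paired with RXR proteins on DNA, turn genes on when they bind it. In mice, loss of certain pairs of RAR genes leaves embryos without Müllerian ducts. RAR-RXR pairs bind direct repeats of a short motif, and both Rarb and Cyp26a1 are textbook targets that carry such a repeat close to the transcription start.

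The promoter sequences are shown because they carry that repeat in 2 of the members. RefSeq promoter windows (GRCm38.p6, 250 bases before to 50 after each start) were found for 8 of the 10 members, the table holding no entry for Aldh1a3 or Crabp2. Both strands were searched for direct repeats of a hexamer, with spacers of 1, 2 or 5 bases. Each hexamer could be AGGTCA (the consensus), AGTTCA (the form shared by both members), GGGTCA (a variant at its first base) or GGTTCA (the form seen once in Rarb). Rarb and Cyp26a1 each held a repeat with a spacer of 5 bases, and no other member's window held a match. Of all 32851 windows, 0.588% held any of these repeats and 0.0974% held one with that spacer. The forms searched include those of the known Rarb and Cyp26a1 elements, so their matches were given by the search, and the shares over all windows show only how seldom the pattern occurs. Capitals mark the 2 hexamers, and in Cyp26a1 they are read on the opposite strand. The Rarb stretch lies at chr14:16575483-16575559 (minus strand), 83 to 7 bases before the start, and the Cyp26a1 stretch at chr19:37697746-37697807 (plus strand), 62 to 1 bases before the start.
Rarb: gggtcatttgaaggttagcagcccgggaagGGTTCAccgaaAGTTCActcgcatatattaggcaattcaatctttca
Cyp26a1: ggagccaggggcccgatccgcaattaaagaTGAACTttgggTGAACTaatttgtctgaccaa
A match of letters is a description and not a measured binding site. The windows of the other retinoic acid genes, 37 genes in 4 lists given further on, held 1 match, in Bco1 with a spacer of 1 base.

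Libraries held 22511872 to 24749859 counts in genes. Ddx3y, on the Y chromosome, stood at 17.1 to 159 CPM in male and at most 0.0492 CPM in female libraries, while Xist stood at 1.78 to 2.22 CPM in male and 277.5 to 4729 CPM in female libraries. CPM are counts scaled to library size with TMM factors. Sp7, the gene of Osterix, which the series title places downstream of AMH, averaged 228 ± 49.4 CPM in male and 29.0 ± 2.47 CPM in female libraries (SD, n = 3 each). Markers of the labelled tissue were present in every library, among them Amhr2 at 160.1 CPM or more. Their levels were not all alike in the sexes. Hoxa10 (98.8 to 110 CPM in male, 168 to 270 CPM in female libraries), Hoxa11 and Emx2 were lower in every male library. Pdgfra was higher in every male library, at 590 to 1310 CPM against 279 to 494 CPM in female libraries. The rest of these markers overlapped, and none of the list passed the test between the sexes given below. Libraries also differed within each sex. Counts outside annotated genes made up 18.2% and 17.5% of uniquely placed counts in male and female replicate 1, against 3.53% to 8.65% in the other libraries. In both sexes 9 of the 10 members were lower in replicate 1 than in replicate 2, which held for 46.1% of the genes tested, and Rarb was the exception. In pooled cells, fewer cells of a type and less RNA per cell cannot be told apart.

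None of the 10 genes passed the test between the sexes (edgeR quasi-likelihood test, Benjamini-Hochberg adjusted p threshold of 0.05), where 1.23% of the 15227 genes tested did, 0.841% higher and 0.387% lower in male. DESeq2 and limma-voom also called 0 of the 10, where they called 5.06% and 1.58% of the genes tested. At an unadjusted p under 0.05 edgeR counted 1 member, Rarb, and such p-values were found for 9.18% of the genes tested. The number of genes passing among all genes rests on single libraries, falling to 0 without male replicate 3 or without female replicate 3. Male and female libraries did not overlap for 2 of the 10, Rarb (higher) and Cyp26b1 (lower), and for 13.7% of the genes tested, 6.47% higher and 7.27% lower in male. The median log2 fold change, male over female throughout, was 0.04 over the members and −0.01 over all genes tested.

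**Figure D1:**
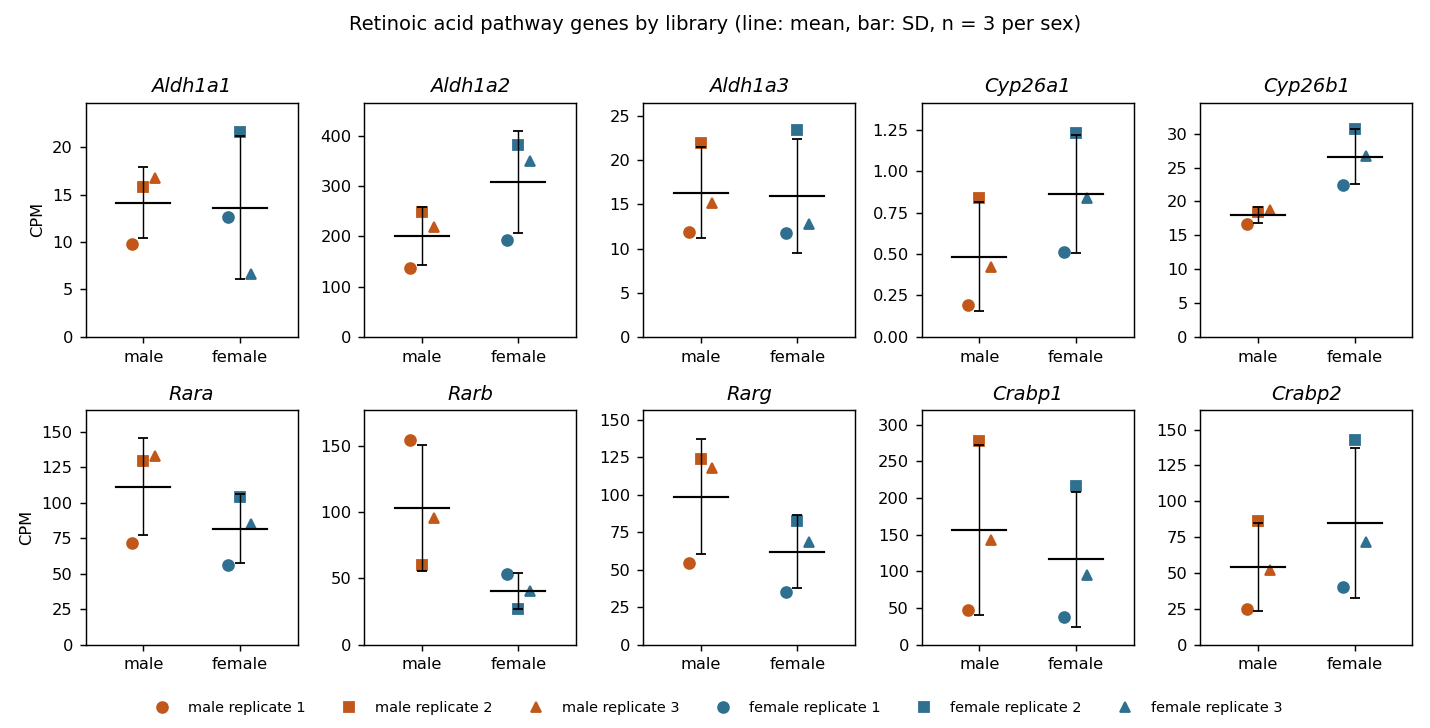
CPM (vertical axis, from 0) of the 10 genes in each male and female library, with the mean as a line and the SD as a bar (n = 3 per sex); the marker shape gives the replicate number. Male and female libraries stand apart for Rarb (60.0 CPM or more in male, at most 53.6 in female) and Cyp26b1 (at most 18.8 in male, 22.5 or more in female) and overlap for the other genes.

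Rarb had the largest fold change of the receptors and of the 10 genes. RARB is a retinoic acid receptor whose gene is itself switched on by retinoic acid through the repeat printed above. Rarb stood at 154, 60.0 and 95.6 CPM in male replicates 1 to 3, against 53.6, 26.6 and 40.4 CPM in female replicates 1 to 3. The lowest male library was thus above the highest female library, by a narrow margin next to the spread within each sex. The means were 103 ± 47.7 CPM in male and 40.2 ± 13.5 CPM in female libraries (SD, n = 3 each). The difference was 1.36 on the log2 scale (SE 0.47, edgeR adjusted p = 0.367), which did not pass. It lay between 0.95 and 1.63 when single libraries or both libraries of a replicate number were left out. Rarb passed in none of those 9 settings. As only 0 to 354 of all genes passed in them, this says little about Rarb itself. In the reference annotation 1793 bases of Rarb exons overlap exons of Top2b on the opposite strand. The library kit leaves strand unmarked, and reads from that stretch cannot be told apart. Top2b, a topoisomerase gene, stood at 365, 48.1 and 92.3 CPM in male and 378, 44.8 and 159 CPM in female libraries, with a log2 fold change of −0.20 (SE 0.97). It was highest in replicate 1 of each sex, as Rarb was, but its male and female libraries overlapped. Depending on the counting, Rarb may hold Top2b reads there or lack its own reads as ambiguous, and the part of either in the Rarb counts was not tested.

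Rara encodes the receptor found in most embryonic tissues, and Rarg one best known from skin and cartilage; their levels varied alike across the libraries. Rara stood at 71.6, 129 and 133 CPM in male and 56.1, 104 and 84.8 CPM in female libraries, 0.44 on the log2 scale (SE 0.40, edgeR adjusted p = 1.0). Rarg stood at 54.4, 123 and 118 CPM in male and 35.2, 82.3 and 68.3 CPM in female libraries, 0.67 on the log2 scale (SE 0.48, edgeR adjusted p = 1.0). Both were lowest in replicate 1 of each sex and overlapped between the sexes. Leaving out libraries moved Rara between 0.23 and 0.68 and Rarg between 0.39 and 0.96. With an offset for GC content and length Rara had 0.25 and Rarg 0.46. Their log2 CPM correlated at r = 0.99 over the 6 libraries, which share the differences between replicate numbers and are not a sample of independent conditions. Over the same 6 libraries Rarb correlated with Rara at r = −0.08 and with Rarg at r = −0.03.

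The receptor genes can be added up once each is put on a scale per length, here CPM per kb of merged exons. The sum of Rara, Rarb and Rarg was 58.5, 69.9 and 76.2 CPM per kb in male libraries, against 31.3, 48.3 and 43.1 CPM per kb in female libraries. Every male library was above every female library, a description with no test. This separation rested on Rarb, whose counts are uncertain where it overlaps Top2b. Rara and Rarg were both lower in male replicate 1 (16.4 and 12.8 CPM per kb) than in female replicate 2 (23.9 and 19.3 CPM per kb). In male replicates 2 and 3 both were above every female library. The sums given use the full length of Rarb. Over only the 3.472 kb that do not overlap Top2b, a choice made after the data were seen that fits counts without reads from the overlap, the sum was 73.7, 75.8 and 85.6 CPM per kb in male and 36.6, 50.9 and 47.1 CPM per kb in female libraries. Over the full length Rarb made up 50.1%, 16.3% and 23.8% of that sum in male libraries and 32.5%, 10.5% and 17.8% in female libraries. The share overlapped between the sexes and was highest in replicate 1 of each. Over the shorter length it was 60.4%, 22.8% and 32.2% in male and 42.2%, 15.04% and 24.7% in female libraries, with the same overlap. Rara made up 28.03% to 42.3% in male and 41.1% to 49.5% in female libraries, and Rarg 21.8% to 41.4% and 26.4% to 40.0%.

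**Figure D2:**
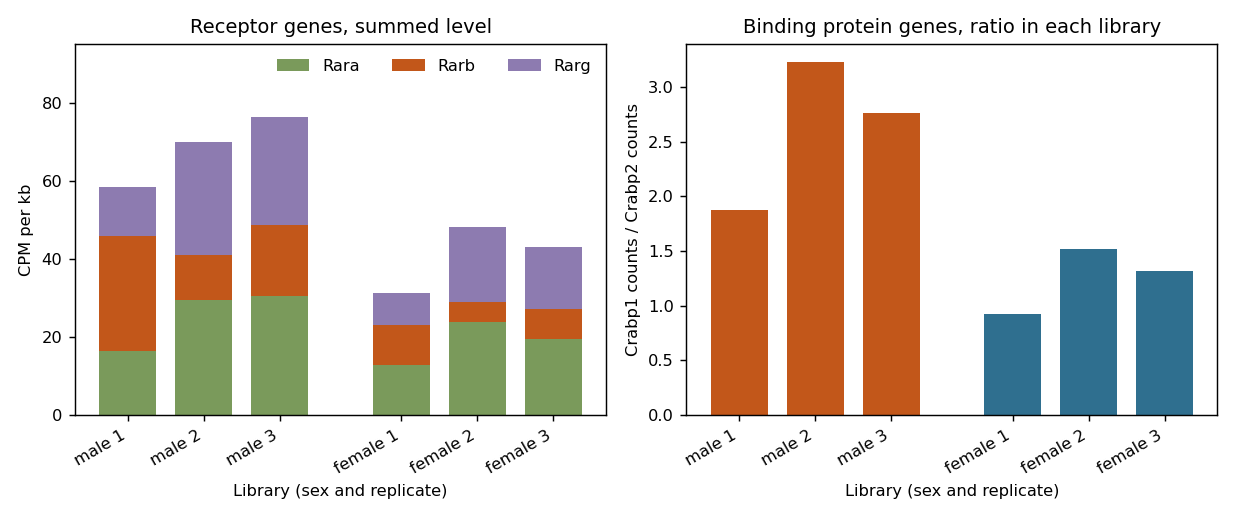
Left, the level of Rara, Rarb and Rarg stacked for each library, in CPM per kb of merged exons; the sums are 58.5 to 76.2 in male and 31.3 to 48.3 in female libraries. Right, Crabp1 counts divided by Crabp2 counts in each library, at 1.87 to 3.23 in male and 0.920 to 1.52 in female libraries.

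Aldh1a2 was the main synthesis gene in both sexes. ALDH1A2 is the enzyme that makes most retinoic acid in the early embryo, and it is also known from mesothelium. Aldh1a2 stood at 137, 248 and 219 CPM in male and 193, 383 and 349.6 CPM in female libraries. The male values lay towards the low side, but male replicates 2 and 3 were above female replicate 1, so the groups overlapped. The means were 201 ± 57.7 CPM in male and 308 ± 101 CPM in female libraries (SD, n = 3 each). Male over female this was −0.62 on the log2 scale (SE 0.41, edgeR adjusted p = 0.965), and between −0.86 and −0.40 with libraries left out. Per length Aldh1a2 made up 93.0% to 93.5% of the summed ALDH1A level in male and 94.4% to 97.4% in female libraries. Those shares did not overlap, though they differ by a few percentage points at most. Mesothelium markers summed to 534 to 658 CPM over 7 genes in male and 623 to 877 CPM in female libraries, with Msln under 1 CPM throughout and none at 0 in every library. The top gene was Wt1, which also served as a marker of the labelled tissue. The other 6 genes summed to 168 to 423 CPM in male and 227 to 581 CPM in female libraries, and overlapped. Lrrn4 and Upk1b were lower in every male library, and no gene of the list was higher in every male library. The part of mesothelium in the Aldh1a2 values was not tested.

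Aldh1a1 and Aldh1a3, which make retinoic acid in other tissues such as the eye, were low in both sexes. Aldh1a1 stood at 9.83, 15.8 and 16.8 CPM in male and 12.6, 21.6 and 6.64 CPM in female libraries, a log2 fold change of 0.05 (SE 0.50). Female replicates 2 and 3 were the highest and the lowest of the 6 libraries. Aldh1a7, a near-identical neighbour of Aldh1a1, went the same way in the female libraries at 5.11, 6.93 and 1.92 CPM, and reads of the pair may be split or lost, so the Aldh1a1 level is uncertain. Aldh1a3 stood at 11.9, 21.9 and 15.1 CPM in male and 11.7, 23.4 and 12.8 CPM in female libraries, a log2 fold change of 0.03 (SE 0.43). For both genes the sign of the fold change turned in some settings, down to −0.43 for Aldh1a1 without replicate 3 of both sexes and −0.25 for Aldh1a3 without male replicate 2.

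Cyp26b1 was the main breakdown gene and was lower in every male library than in every female library. CYP26B1 removes retinoic acid and is best known from the fetal testis, where it shields germ cells from it. Cyp26b1 stood at 16.7, 18.5 and 18.8 CPM in male and 22.5, 30.7 and 26.6 CPM in female libraries. The means were 18.0 ± 1.12 CPM in male and 26.6 ± 4.10 CPM in female libraries (SD, n = 3 each). The difference of −0.56 on the log2 scale (SE 0.30, edgeR adjusted p = 0.787) did not pass. Markers of Sertoli cells, a testis cell type that expresses Cyp26b1, had a higher sum in male libraries. Over 11 genes they summed to 102 to 172 CPM in male and 36.2 to 82.5 CPM in female libraries, with Amh, Sox9 and Cst9 higher past the threshold and Dmrt1 under 1 CPM throughout. Cst8, Fgf9, Ptgds, Inha and Clu overlapped between the sexes, and Cst8 was lower in male by fitted value (log2 fold change −2.19). Germ cell markers summed to at most 2.33 CPM over 6 genes. The part of such cells in the Cyp26b1 values was not tested.

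Cyp26a1, the CYP26 gene most directly induced by retinoic acid, was close to the limit of detection. It held 5, 17 and 10 counts in male and 14, 25 and 21 counts in female libraries, or 0.191, 0.840 and 0.421 CPM in male and 0.514, 1.23 and 0.840 CPM in female libraries. The difference was −0.83 on the log2 scale (SE 0.64, edgeR adjusted p = 1.0), and lay between −1.48 without male replicate 2 and −0.44 without male replicate 1. Thus the pair of members that share the repeat had fold changes of opposite sign, neither past the threshold. Cyp26b1 exceeded Cyp26a1 per length by 8.15 to 32.4 times in male and 9.25 to 16.2 times in female libraries. The ratio of Aldh1a2 to Cyp26b1 per length, synthesis over breakdown, was 19.3, 31.7 and 27.5 in male and 20.3, 29.5 and 31.0 in female libraries, and overlapped.

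Crabp1 and Crabp2 encode the carriers of retinoic acid: CRABP1 is linked to its breakdown in the cytoplasm, CRABP2 to its delivery to receptors in the nucleus. Crabp1 stood at 46.7, 278 and 143 CPM in male and 37.0, 217 and 94.5 CPM in female libraries, 0.43 on the log2 scale (SE 0.82, edgeR adjusted p = 1.0). Crabp2 stood at 25.0, 85.9 and 51.8 CPM in male and 40.2, 143 and 71.7 CPM in female libraries, −0.65 on the log2 scale (SE 0.62, edgeR adjusted p = 1.0). Both genes varied several-fold within each sex, with replicate 1 lowest and replicate 2 highest, and overlapped between the sexes. Without male replicate 2 Crabp1 had −0.29, and Crabp2 moved between −1.15 without male replicate 2 and −0.0385 without female replicate 2. With an offset for GC content and length Crabp1 had 0.07 and Crabp2 −0.81.

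Set against each other within a library, the carriers separated the sexes. Crabp1 held 1.87, 3.23 and 2.76 counts per Crabp2 count in male libraries, against 0.920, 1.52 and 1.32 in female libraries. All male ratios were above all female ratios. This ratio was chosen with the values of both genes known and is given with no test. It does not depend on how libraries are scaled, but it shows unequal levels only, not which of the carriers differed. Nor is it free of effects of GC content, which was 57.4% for Crabp1 and 50.6% for Crabp2 transcripts.

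Levels of different genes were compared per length. In male libraries Crabp1 was highest at 194 ± 145 CPM per kb, followed by Aldh1a2 at 88.9 ± 25.5, Crabp2 at 41.0 ± 23.1, Rara at 25.5 ± 7.86, Rarg at 23.1 ± 8.98 and Rarb at 19.6 ± 9.06 (SD, n = 3). Far lower came Aldh1a3 at 3.53 ± 1.12 CPM per kb, Cyp26b1 at 3.36 ± 0.210, Aldh1a1 at 2.86 ± 0.762 and Cyp26a1 at 0.244 ± 0.166. Female means had the same order, except that Cyp26b1 at 4.97 ± 0.766 CPM per kb stood above Aldh1a3 at 3.46 ± 1.40. Single libraries did not all follow the means. Aldh1a2 was above Crabp1 in female replicates 1 (85.3 against 46.1 CPM per kb) and 3 (154 against 118), and in male replicate 1 (60.4 against 58.3). Crabp1 and Aldh1a2 overlapped across libraries of either sex, as did Aldh1a2 and Crabp2. Within each library, though, Aldh1a2 was above Crabp2. In male libraries the 3 receptor genes did not differ from each other beyond their spread, nor did Aldh1a3, Cyp26b1 and Aldh1a1. With the longest transcript in place of merged exons 6 of the 10 male ranks changed, all within the receptors or within Aldh1a3, Cyp26b1 and Aldh1a1. The level of Rarb over its shorter length was 17.3 to 44.5 CPM per kb in male and 7.65 to 15.4 CPM per kb in female libraries.

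**Figure D3:**
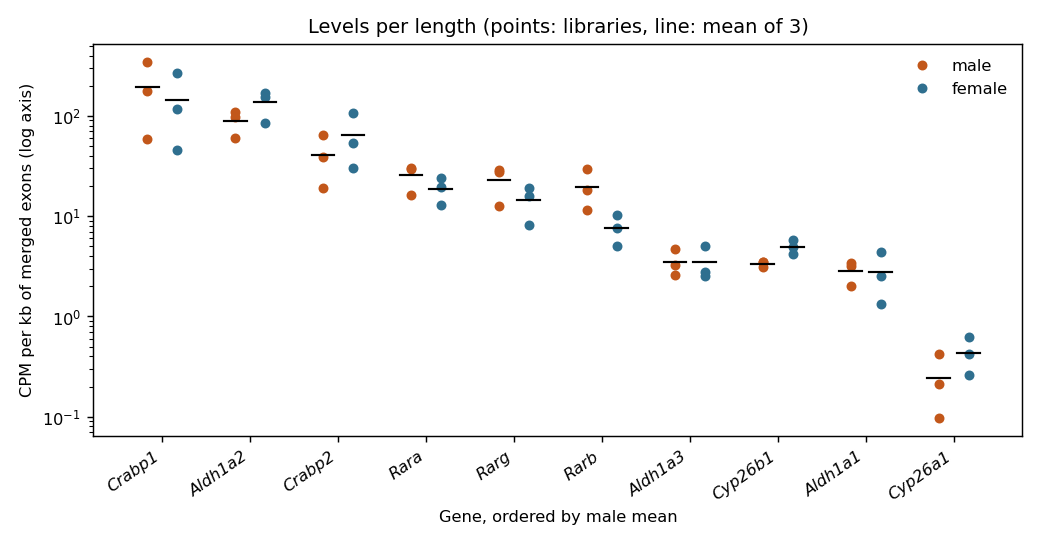
Level per length of the 10 genes in CPM per kb of merged exons, on a log axis, in order of the male mean; points are libraries and lines the means of 3. Crabp1, Aldh1a2 and Crabp2 have the 3 highest means in both sexes, and Cyp26a1 the lowest, at 0.244 in male and 0.434 in female libraries.

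The rest of the pathway was read from 4 lists: retinol supply and storage, other breakdown and fatty acid binding genes, RXR partners and cofactors, and retinoic acid response genes. Of 53 genes 40 were tested, and none passed in edgeR. At an unadjusted p under 0.05 edgeR counted 8 of the 40, beside the 9.18% of all genes tested given above. DESeq2 called 3 higher and 3 lower in male, where it called 2.92% of all genes higher and 2.15% lower, and limma-voom called 0. The median log2 fold change of the 40 was −0.07. No list had a common direction.

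In retinol supply and storage, 13 of 20 genes were tested, 5 of them at an unadjusted p under 0.05. Rdh10, the enzyme of the first oxidation step, stood at 67.8, 58.2 and 66.7 CPM in male and 118, 142 and 166 CPM in female libraries. All male libraries were below all female libraries, and the difference of −1.14 on the log2 scale (SE 0.31, edgeR adjusted p = 0.185) did not pass, though DESeq2 called it lower. Adh1, an alcohol dehydrogenase that can oxidise retinol, stood at 3.06, 6.28 and 4.42 CPM in male and 0.661, 1.08 and 0.8001 CPM in female libraries. Its log2 fold change was 2.43 (SE 0.45, edgeR adjusted p = 0.0635), which did not pass. DESeq2 called it higher (adjusted p = 0.000121), as did edgeR with an offset for GC content and length (adjusted p = 0.00684).

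The next 4 genes were chosen after their values were seen. Dhrs3, which turns retinaldehyde back into retinol and is induced by retinoic acid, had 47.9, 179.6 and 156 CPM in male and 16.6, 60.3 and 34.8 CPM in female libraries. Its log2 fold change was 1.78 (SE 0.67, edgeR adjusted p = 0.446). Stra6, the cell surface receptor that takes up retinol, had 92.7, 252 and 217 CPM in male and 237, 579.6 and 367 CPM in female libraries, −1.08 on the log2 scale (SE 0.52, edgeR adjusted p = 0.693). Its relative Stra6l had −2.23 (SE 0.59) and Cyp1b1, a P450 enzyme that can oxidise retinol, −1.79 (SE 0.53), and for both all male libraries were below all female libraries. None of the 4 passed in edgeR; DESeq2 called Stra6l and Cyp1b1 lower. The genes at the retinol end thus differed in sign, with Rdh10 and Stra6 lower and Dhrs3 and Adh1 higher in male by fitted value.

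Of the RXR partners and cofactors all 13 were tested and none reached an unadjusted p under 0.05. Rxra, one of the receptors that pair with RARs, stood at 81.3, 229 and 153 CPM in male and 39.9, 112 and 76.9 CPM in female libraries, 1.02 on the log2 scale (SE 0.54, edgeR adjusted p = 0.780). Rxrg was near 1 CPM, at 0.421 to 1.14 CPM in male and 1.43 to 2.31 CPM in female libraries, with −1.16 (SE 0.50). In the short list of other breakdown and fatty acid binding genes 2 of 3 were tested. Ppard, a nuclear receptor of fatty acids, had 0.96 (SE 0.41, edgeR adjusted p = 0.553), and Fabp5, a carrier that can pass retinoic acid to it, averaged 72.0 ± 25.2 CPM in male and 72.0 ± 33.4 CPM in female libraries.

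Of 17 retinoic acid response genes 12 were tested. Hoxb4, a homeobox gene with a retinoic acid element, stood at 20.5, 17.6 and 25.997 CPM in male and 8.56, 7.57 and 9.36 CPM in female libraries. The groups did not overlap, and the log2 fold change was 1.33 (SE 0.33, edgeR adjusted p = 0.147). DESeq2 called it higher in male. Rec8, a meiotic cohesin gene that is known to respond to retinoic acid in germ cells, was named after its values were seen and went the other way, at 3.06 to 4.80 CPM in male and 6.52 to 16.5 CPM in female libraries (−1.41, SE 0.49, edgeR adjusted p = 0.362). Its value rests in part on female replicate 2, the library at 16.5 CPM: without it the difference was −0.85, and without replicate 2 of both sexes −0.74.

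**Figure D4:**
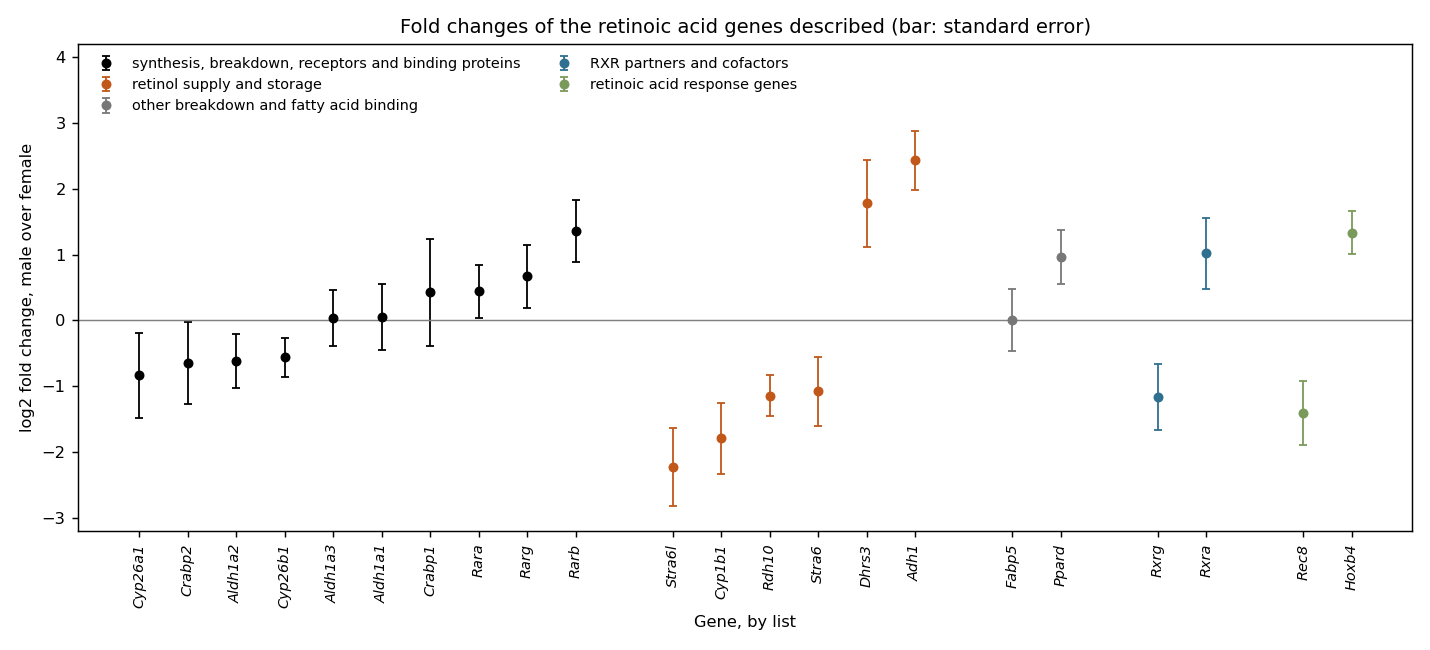
Log2 fold change, male over female, of the 10 genes and of the genes of the 4 further lists described in the text, with the standard error as a bar; no gene shown passed the edgeR threshold. Values run from −2.23 for Stra6l to 2.43 for Adh1, and the genes shown lie on both sides of 0 for the 10 genes, retinol supply and storage, RXR partners and response genes.

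Genes with the most similar pattern to the members with the smallest p were sought among 11127 genes with a mean of at least 5 CPM. By Pearson correlation of log2 CPM over the 6 libraries, Rarb was most like Ap1s2 (r = 0.996) and Il1rap (r = 0.996). Igfbpl1 had a pattern close to that of Cyp26b1 (r = 0.994), and Aldh1a2 was most like Adcy5 (r = 0.999) and Sfxn5 (r = 0.998). None of these genes passed the test between the sexes in edgeR. With 6 points and this many candidates such values are a description of shared pattern, which includes the differences between replicate numbers.

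Sums of other cell types' markers separated the sexes in several lists. Several of these sums rest on 1 gene. The endothelium sum was 147 to 330 CPM over 8 genes in male and 60.0 to 101 CPM in female libraries, most of it Kdr. Without Kdr the other 7 genes summed to 11.5 to 13.8 CPM in male and 14.4 to 19.6 CPM in female libraries, the opposite order, and Esam was lower in every male library (1.91 to 3.75 CPM) than in every female library (5.88 to 11.01 CPM). Neurons and Schwann cells had 68.2 to 77.1 CPM over 8 genes in male and 15.4 to 31.2 CPM in female libraries, most of it Stmn2, which passed as higher. Without Stmn2 the sums overlapped, at 6.67 to 26.5 CPM in male and 3.74 to 21.6 CPM in female libraries. Sertoli markers without their top gene, Clu, still stood apart, at 85.7 to 132 CPM in male and 28.5 to 42.3 CPM in female libraries. Pregranulosa markers summed to 275 to 553 CPM over 7 genes in male and 111 to 209 CPM in female libraries, most of it Wnt4, a gene also used by duct mesenchyme. Without Wnt4 the order was the opposite, at 13.9 to 21.5 CPM in male and 28.6 to 57.7 CPM in female libraries. In 4 of the 7 genes, Foxl2, Rspo1, Irx3 and Irx5, every male library was below every female library, and Irx5 passed as lower. Kidney markers summed to less, at 61.5 to 104 CPM over 7 genes in male and 132 to 209.6 CPM in female libraries, most of it Sall1, although 1 of the 7, Gdnf, passed as higher. Without Sall1 the sums overlapped, at 6.87 to 8.43 CPM in male and 8.12 to 15.8 CPM in female libraries. Sums of erythroid markers were 0.716 to 1.80 CPM over 6 genes in male and 1.87 to 26.2 CPM in female libraries. These sums overlapped without their top gene, Hbb-y, at 0.463 to 1.72 CPM in male and 1.36 to 5.75 CPM in female libraries. Duct epithelium markers overlapped, at 205 to 529 CPM over 13 genes in male and 324 to 800.1 CPM in female libraries, with Epcam lower past the threshold. Fetal Leydig markers, at 2.82 to 7.76 CPM over 7 genes in male and 5.56 to 9.15 CPM in female libraries, and those of macrophages and leukocytes, at 6.57 to 10.3 CPM over 7 genes in male and 4.87 to 9.44 CPM in female libraries, overlapped as well. Sox10, Six2, Foxd1, Cldn5, Pax2 and Lhx1 were under 1 CPM in every library, and no listed marker was at 0 in every library. The part of such cells in the values of the retinoic acid genes was not tested.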

How the data were processed

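YFP+ cells of 3 male and 3 female libraries were sequenced as paired 76-base reads from at least 100 ng of total RNA, per the labels. The values are raw counts per Ensembl gene, as deposited. The submitters' processing notes name TopHat, HTSeq, DESeq and the mouse build mm9. No version, annotation release or strand setting was given. The 5 summary rows were left out; counts falling on more than 1 gene made up 6.51% to 10.0% of uniquely placed counts. Symbols matched 32919 of 37991 identifiers.

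In R 4.3.3, edgeR 4.0.16 kept genes by filterByExpr, scaled libraries with TMM factors and ran its robust quasi-likelihood test on sex alone (two-sided, Benjamini-Hochberg over all genes tested). Standard errors follow from the fold change and the F statistic. Lengths came from GENCODE M21 (GRCm38), which is not the build of the counts. The gene test was tested on simulated data.

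Alternatives were RLE or no scaling, other filters, DESeq2 1.42.0, limma-voom 3.58.1, no robust estimation, a GC and length offset (splines with 5 degrees of freedom, 96.4% of tested genes), a replicate block, a threshold of 0.1, and leaving out libraries. Leaving out a replicate number in both sexes, with or without the block, and the block with other scalings were added after the data were seen, as was the shorter Rarb length. Members, lists and named genes were chosen with earlier results of these data known. Named genes were all members, the 2 smallest p-values per further list, and for the 3 members with the smallest p the 2 most similar genes. Labels call replicates biological, without saying whether litters were shared. A few genes that this rule names are not reported here.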

Additional observations from a re-analysis of the deposited data

How the results depend on the processing

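Of the 10 genes, none passed in edgeR with other scalings, other filters, the GC and length offset, a threshold of 0.1 or any library left out, nor in DESeq2 or limma-voom; the exception was a replicate block. Replicate numbers 1 and 2 matched across the sexes, and number 3 did not. Deviations from the group mean correlated between the sexes over genes at 0.948, 0.897 and −0.048 for replicates 1, 2 and 3. Such deviations sum to 0 within each sex, so the matches of numbers 1 and 2 are not independent. Male replicate 3 correlated best with female replicate 2, at 0.636. Whether the numbers mark shared litters is not stated in the labels. With a replicate block 6 of the 10 passed (Rarb, Rarg and Crabp1 higher, Aldh1a2, Cyp26b1 and Crabp2 lower), where 27.3% of all genes did. With the block, 5 passed with the GC and length offset (not Crabp1, at 0.08), 7 with RLE factors and 5 without scaling. The shares of all genes passing there were 29%, 26.9% and 25.2%. Without replicates 1, 2 and 3 the block gave 3, 1 and 5, beside 18%, 16.9% and 22.5% of the genes tested. Rarb passed with the block in each of these settings. It was the only one of the 10 to pass with the block and without replicate 2. The block assumes a pairing by number, which was not seen for replicate 3, and its p-values depend on that pairing. Xist passed without the block (edgeR adjusted p = 0.0275) but not with it (edgeR adjusted p = 0.0651). Among the other retinoic acid genes 19 passed with the block, 22 with block and offset, 20 with block and RLE factors, 19 with block and no scaling, and 18, 16 and 19 with the block without replicates 1, 2 and 3. Without the block 6 of them passed with the offset, 6 in DESeq2, 2 at a threshold of 0.1 and 0 to 2 with libraries left out (Dhrs3 and Adh1 without replicate 1). Over all genes 187 passed, against 4164 with the block, 4418 with block and offset, 4098 with block and RLE factors, 3841 with block and no scaling, and 2699, 2665 and 3530 with the block without replicates 1, 2 and 3. Without the block 905 (5.94%) passed with the offset, 771 (5.06%) in DESeq2, 386 at a threshold of 0.1 and 0 to 354 with libraries left out. Leaving out libraries turned the log2 fold change of Aldh1a1 (−0.43 to 0.57), Aldh1a3 (−0.25 to 0.42), Crabp1 (−0.29 to 1.25) and Fabp5 (−0.25 to 0.44). With the block and without replicate 3 Aldh1a1 had −0.42 and Aldh1a3 −0.056, and without scaling Aldh1a3 had −0.0025 with the block and −0.016 without it. Fabp5, at 72.0 CPM in both sexes, had 0.027 with the block, 0.044 with the offset, 0.061 with both, 0.040 with RLE factors, 0.056 with block and RLE factors, 0.072 and 0.18 with the block without replicates 1 and 2, 0.0037 with at least 1 CPM in 3 libraries, 0.040 in DESeq2 and 0.029 in limma-voom. Lengths of the longest transcript changed 6 of the 10 male ranks. The cause was not tested. At 5 to 25 counts per library, depth limits what can be said of Cyp26a1.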
